A study of Mus musculus with 11 samples.

Results

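The DNA replication genes analysed here are 42 genes named by symbol, and all 42 were found among the 24062 genes of the count tables and passed the filter on low values in each fit. They code for the proteins that license origins, open and copy the DNA, supply nucleotides and restore chromatin behind the fork. RNA-seq was performed on primary lung mesenchymal cells of E15 mouse embryos that carried 2, 1 or no intact copies of Sp3, a zinc-finger transcription factor that binds GC boxes in promoters. There were 4 WT (Sp3+/+) libraries, 4 Sp3+/- libraries and 3 Sp3-/- libraries, all titled CTRL with no treatment in the labels, and the cells had been selected only by how readily they stuck to a culture dish and had been grown on before RNA was taken. The genotype is that of the whole embryo, so cells of every type in a culture share it. Library names join the 2 numbers of the sample title, and 6 of the 11 titles end in a further number, called the suffix below. What these numbers mean was not given in the sources used here. The suffix was present in WT 685-2, 697-1 and 697-3 and in Sp3+/- 468-3, 685-5 and 685-7, and it was absent from WT 468-4, Sp3+/- 697-4 and all 3 Sp3-/- libraries. It was 2 in Sp3+/- 468-3 and 3 in every other library that had one.

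Libraries held between 9849111 and 59297495 reads on genes, with the smallest being Sp3-/- 697-5. Sp3 itself (chromosome 2, 72936430 to 72980446 on GRCm38.p6) was at 60.7 to 107 CPM (reads scaled to the library total) in WT, 51.8 to 71.6 in Sp3+/- and 14.4 to 18.9 in Sp3-/- libraries, with a log2 fold change of -2.30 ± 0.21 (SE) from WT to Sp3-/- (edgeR adjusted p = 0.0061). Counts over the whole gene do not show which part is deleted. Collagen and other mesenchymal markers summed to 7093 to 19144 CPM in the 5 libraries without a suffix and 20858 to 22431 CPM in the 6 with one, and of these markers Pdgfrb (0.229-fold) and Vim (0.729-fold) were called lower in Sp3-/- than in WT cells. All 11 macrophage markers were also detected in every library. Their sum was 377 to 912 CPM in the 6 libraries with a suffix, 3397 in WT 468-4, 3149 in Sp3+/- 697-4 and 3255 to 12049 in the Sp3-/- libraries. Mesothelial markers summed to 2026 to 5629 CPM in Sp3-/- libraries and 687 to 2401 CPM in the others. Epithelial markers summed to 52.8 to 178 CPM in Sp3-/- libraries and 24.6 to 49.6 CPM in the others. Krt18 was the largest part of this sum in every library. Of the 7 tested, 5 had higher fitted levels in Sp3-/- than in WT cells, and 3 of them (Cdh1, Krt18 and Epcam) were called. Sftpc (log2 fold change -4.72) and Nkx2-1 (-1.85) had lower fitted levels and were not called, with at most 4.51 and 1.16 CPM in any library. The part of these other cell types in the levels of the replication genes was not tested. In such bulk samples, fewer cells of a type and less RNA per cell cannot be told apart.

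DNA replication starts when the origin recognition complex, Cdc6 and Cdt1 load the ring-shaped MCM helicase onto DNA in G1. In S phase, Cdc45 and the GINS complex switch the helicase on, primase and the DNA polymerases copy both strands, and the sliding clamp Pcna holds the polymerases in place. Many of these genes are transcribed as cells enter S phase, under E2F factors, so their mRNA in a culture is commonly used as a sign of how many of its cells are cycling. The protein products of these genes were not measured here.

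Most replication genes had a lower mean level in Sp3-/- than in WT cells, but the libraries of each genotype differed widely. The mean log2 CPM over the 42 genes was 4.76, 4.59 and 4.37 in WT 685-2, 697-1 and 697-3, and 3.78 in WT 468-4. In Sp3+/- cells it was 4.50, 4.35 and 4.47 in 468-3, 685-5 and 685-7, and 3.88 in 697-4. In Sp3-/- cells it was 3.97, 4.08 and 3.33 in 685-1, 697-2 and 697-5. The WT and the Sp3+/- library without a suffix were therefore below Sp3-/- 685-1 and 697-2, and the ranges of the genotypes overlapped. The 42 genes together took up between 0.0835% and 0.169% of the reads on genes.

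**Figure D1:**
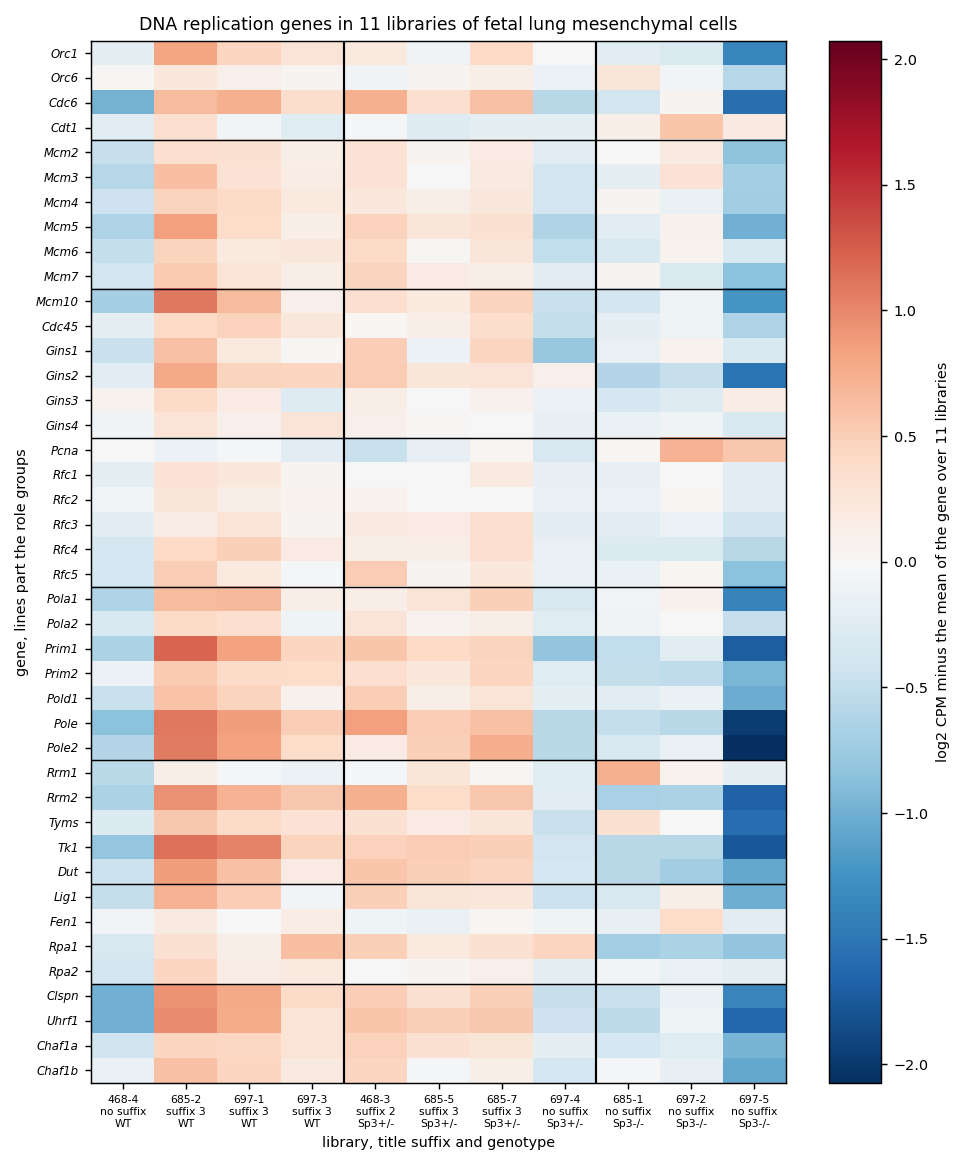
Each row is 1 of the 42 replication genes and each column 1 of the 11 libraries, with the title suffix and genotype under it. Colour is the log2 CPM minus the mean of that gene over the 11 libraries, on a scale set by the most extreme value. WT 468-4 and Sp3+/- 697-4 are mostly blue, as are the Sp3-/- libraries, while Pcna, Cdt1 and Rrm1 do not follow the other rows.

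In WT against Sp3-/- cells, 39 of the 42 genes had a lower and 3 a higher fitted level in Sp3-/- cells, and the median of the log2 fold changes was -0.56 (0.679-fold), against -0.0032 over the 14025 genes tested, of which 50.3% were lower. Only 5 of the 42 were called lower (edgeR adjusted p below 0.05), namely Gins2, Prim2, Rrm2, Dut and Rpa1, and 9.77% of all genes tested were called lower. None was called higher, against 8.76% of all genes. At an unadjusted p below 0.05, 14 of the 42 differed (33.3%), against 37.6% of all genes tested. The share of replication genes called was thus near that of all genes, while their median was further below 0.

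**Figure D2:**
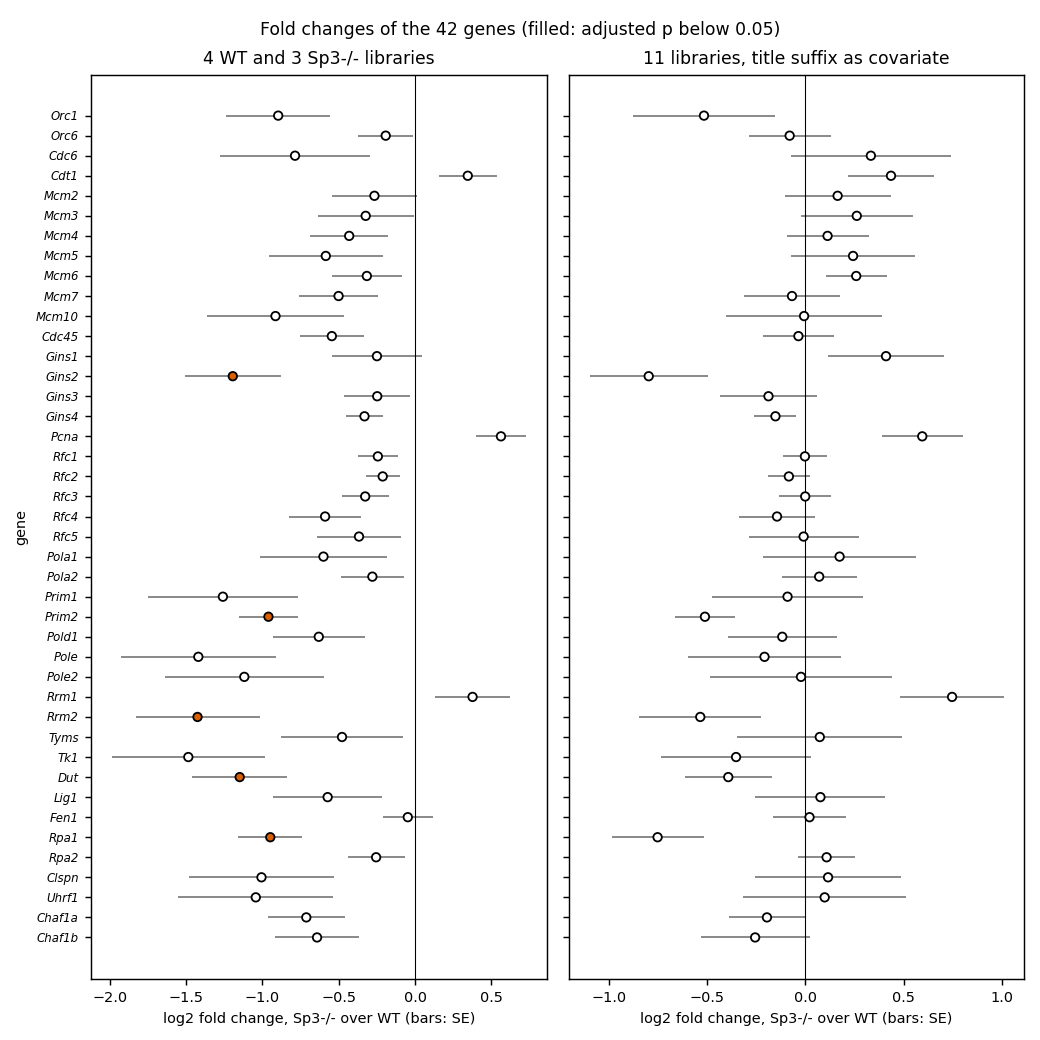
Points are log2 fold changes of Sp3-/- over WT with bars of 1 SE, for the 42 genes in the order of their roles. Filled points have an adjusted p below 0.05. On the left, from 4 WT and 3 Sp3-/- libraries, 5 genes are filled and the median is -0.56. On the right, with the suffix as a covariate in all 11 libraries, none is filled and the median is -0.0072.

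The levels also differed between libraries with and without a suffix. For 23 of the 42 genes, all 5 libraries without a suffix were below all 6 libraries with one, as was the case for 9.92% of all genes tested. This count mixes genotype and suffix, since 3 of the 5 are the Sp3-/- libraries, and within genotypes the contrast rests on 1 library each of WT and Sp3+/-. All 42 had a lower mean in WT 468-4 and Sp3+/- 697-4 than in the 6 libraries with a suffix, with a median log2 difference of -0.61 against -0.0030 over all genes. Between the Sp3-/- libraries and that pair, the median log2 difference of the replication genes was -0.034, against 0.0086 over all genes. All 3 Sp3-/- libraries were below both of the pair for 5 replication genes, against 21.5% of all genes, and above both for 6, against 20.2%.

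The suffix was also added as a covariate with its values none, 2 and 3, of which only Sp3+/- 468-3 had 2. With this covariate, none of the 42 genes was called in either direction, where 5.8% of all genes were called lower and 3.6% higher in Sp3-/- cells. The median log2 fold change was then -0.0072, and 24 genes were lower. Without WT 468-4, by contrast, 19 genes were called lower, with a median of -0.71, against 15.1% of all genes. Leaving out WT 685-2, 697-1 or 697-3 left none of the 42 called, where 6.39%, 5.48% and 5.74% of all genes were called in either direction. Leaving out Sp3-/- 697-2 or 697-5 also left none of the 42 called, where 2.01% and 10.1% of all genes were. Without Sp3-/- 685-1 there were 2 calls among the 42, Prim2 lower and Pcna higher, against 16% of all genes. Since all Sp3-/- libraries lacked the suffix, genotype and suffix can be separated only through WT 468-4 and Sp3+/- 697-4.

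The mean level of the replication genes moved together with that of 25 genes of G2 and mitosis. The mitotic mean was 5.35, 5.15 and 4.53 log2 CPM in the WT libraries with a suffix and 3.32 in WT 468-4. It was 4.69 to 4.88 in the Sp3+/- libraries with a suffix and 3.72 in 697-4, and in the Sp3-/- libraries it was 3.72, 3.67 and 2.51. All 25 mitotic genes were lower in every library without a suffix than in every library with one, against 9.92% of all genes tested. This order mixes genotype and suffix, since all Sp3-/- libraries lacked the suffix. The part of macrophage content in these levels was not tested.

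**Figure D3:**
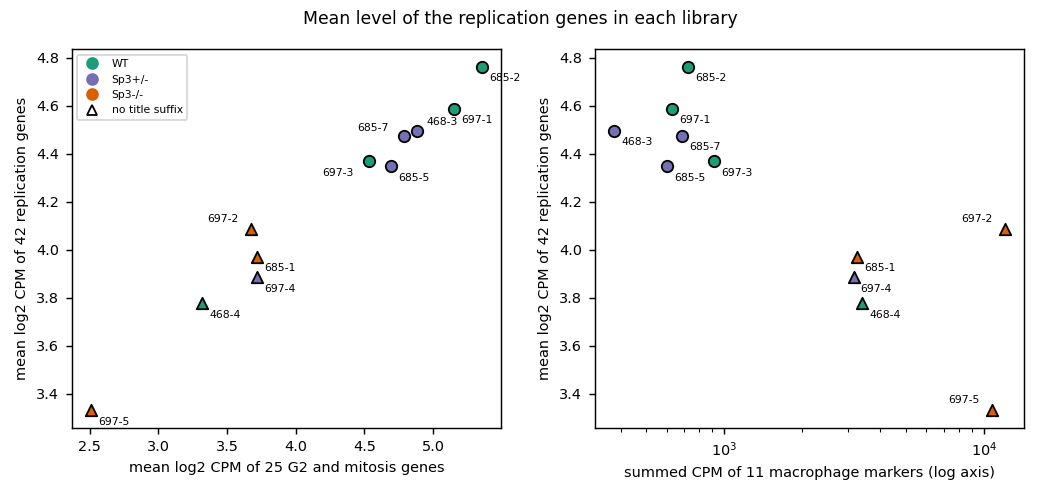
The mean log2 CPM of the 42 replication genes in each library is plotted against the mean log2 CPM of 25 genes of G2 and mitosis (left) and against the summed CPM of 11 macrophage markers on a log axis (right). Colours are genotypes, and triangles are libraries without a title suffix. The 5 triangles lie below 4.1 on the vertical axis and the 6 circles above 4.3, with higher macrophage sums in the triangles.

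The promoters of these genes held known S-phase and Sp-family letters. RefSeq windows on GRCm38.p6, each from 250 bases before to 50 bases after a transcription start, were matched by symbol for 35 of the 42 genes, giving 40 windows. Mcm4, Gins1, Gins2, Gins4, Rfc2, Prim2 and Pole had no match. The core of the GC box, GGGCGG on either strand, was present in 29 of the 40 windows (72.5%), in 61% of the 13532 windows of genes tested here and in 35.7% of all 32851 windows. The longer form GGGGCGGGG, which contains the core, was present in 17.5% of the replication windows and 20.6% of those of tested genes. E2F letters (TTTGGCGC, TTTCCCGC, TTTGCCGC or TTTCGCGC on either strand, where matches may overlap each other) were present in 15 of the 40 windows (37.5%), compared with 3.69% of the windows of tested genes, 2.26% of all windows and 4.35% of the 23 windows of the mitotic genes. CCAAT on either strand was present in 60% of the replication windows, 87% of the mitotic windows and 37.1% of those of tested genes. A match describes the letters only and is not evidence of binding in these cells.

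The 150 bases before the start are given here 5′ to 3′ on the gene's strand, for a helicase gene with several E2F matches (Mcm6), for a gene with an E2F match whose level did not follow the others (Gins3), for the sliding clamp, whose differences had the opposite sign (Pcna) and for a gene called lower (Rrm2). No RefSeq gene overlaps the bases shown. Capitals mark GGGCGG and the E2F letters on either strand.
Mcm6 (chr1:128359706-128359855, minus strand): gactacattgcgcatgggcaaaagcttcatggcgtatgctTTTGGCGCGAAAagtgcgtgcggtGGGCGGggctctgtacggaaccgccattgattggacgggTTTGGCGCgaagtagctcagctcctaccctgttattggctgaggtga
Gins3 (chr8:95633409-95633558, plus strand): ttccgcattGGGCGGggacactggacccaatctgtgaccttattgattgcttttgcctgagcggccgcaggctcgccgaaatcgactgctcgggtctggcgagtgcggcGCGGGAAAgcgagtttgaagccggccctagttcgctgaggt
Pcna (chr2:132253181-132253330, minus strand): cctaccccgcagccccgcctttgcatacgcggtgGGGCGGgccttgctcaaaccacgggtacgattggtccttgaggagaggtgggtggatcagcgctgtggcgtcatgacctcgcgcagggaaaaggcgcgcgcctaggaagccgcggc
Rrm2 (chr12:24708104-24708253, plus strand): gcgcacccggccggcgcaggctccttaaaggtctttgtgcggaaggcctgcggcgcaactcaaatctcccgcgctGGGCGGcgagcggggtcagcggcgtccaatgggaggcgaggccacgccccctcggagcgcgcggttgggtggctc
Mcm6 held 3 E2F matches in these bases, of which a pair overlap, and Gins3 held 1. Pcna and Rrm2 each held 1 GC box core and no E2F match here.

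The 4 genes of origin recognition and licensing had a median log2 fold change of -0.49 from WT to Sp3-/- cells, and none was called. Orc1, the largest subunit of the origin recognition complex, was at 4.21, 8.54, 6.63 and 5.81 CPM in WT 468-4, 685-2, 697-1 and 697-3. In the Sp3+/- libraries 468-3, 685-5, 685-7 and 697-4 it was at 5.59, 4.61, 6.46 and 4.86 CPM, and in Sp3-/- 685-1, 697-2 and 697-5 it was at 4.12, 3.95 and 1.90 CPM. All Sp3-/- values were below all others, although the gap between Sp3-/- 685-1 and WT 468-4 was small, and the log2 fold change of -0.90 ± 0.34 (SE) was not called (adjusted p = 0.098). Cdt1, which brings the MCM ring to the origin, had the opposite sign. It was at 14.9, 22.3, 16.9 and 14.7 CPM in WT, 17.2, 14.5, 15.5 and 15.2 in Sp3+/- and 19.2, 26.2 and 20.0 in Sp3-/- libraries, taken in the same library order as for Orc1 here and in the following. WT 685-2 lay among the Sp3-/- values, and the log2 fold change of 0.35 ± 0.19 was not called (adjusted p = 0.226). Cdc6, the ATPase that helps to load the helicase, and Orc6 had log2 fold changes of -0.79 and -0.19.

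All 6 subunits of the MCM helicase had lower fitted levels in Sp3-/- cells, within a narrow range of log2 fold changes from -0.59 to -0.27, and none was called. Mcm5 had the lowest fold change of the ring. Its levels were 16.3, 45.6, 32.8 and 27.8 CPM in WT, 35.3, 29.9, 31.3 and 16.4 in Sp3+/- and 21.5, 26.9 and 12.6 in Sp3-/- libraries. WT 468-4 and Sp3+/- 697-4 were within the range of the Sp3-/- libraries. Mcm2, with the highest fold change, was at 32.5, 57.5, 56.4 and 49.5 CPM in WT, 55.4, 46.7, 50.8 and 38.8 in Sp3+/- and 45.5, 51.6 and 25.2 in Sp3-/- libraries, and the genotypes overlapped.

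Among the 6 genes of helicase activation, all with lower fitted levels in Sp3-/- cells, Gins2 was the one called. Gins2, a subunit of the GINS complex, lies on chromosome 8 (120581266 to 120589075). Its levels were 9.27, 18.9, 15.0 and 14.8 CPM in WT, 15.8, 12.9, 13.1 and 11.7 in Sp3+/- and 7.17, 7.81 and 3.81 in Sp3-/- libraries. Every Sp3-/- library was below every other library, and the level was 0.437-fold that of WT (log2 fold change -1.19 ± 0.31, edgeR adjusted p = 0.039). Gins3, another subunit of the same complex, was at 9.86, 12.4, 10.6 and 7.82 CPM in WT, 10.4, 9.34, 10.0 and 8.62 in Sp3+/- and 7.40, 7.85 and 10.5 in Sp3-/- libraries. These ranges overlapped almost fully, and the log2 fold change was -0.25 ± 0.22 (adjusted p = 0.436). Gins1 and Gins4, the other subunits, had log2 fold changes of -0.25 and -0.33, Cdc45 of -0.55 and Mcm10, which helps to activate the helicase, of -0.91.

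Pcna was the clearest exception to the common pattern. It lies on chromosome 2 (132249286 to 132253180) and codes for the ring that tethers the polymerases. Its levels were 37.6, 34.8, 37.5 and 32.4 CPM in WT, 27.6, 33.9, 39.0 and 30.2 in Sp3+/- and 39.3, 62.5 and 56.1 in Sp3-/- libraries. All Sp3-/- values were above all others, with Sp3-/- 685-1 only just above Sp3+/- 685-7, and Pcna was the only one of the 42 with this order, which 11% of all genes showed. The log2 fold change against WT was 0.56 ± 0.17 (adjusted p = 0.0525, not called), and Pcna was called higher in 7 of 21 alternatives, among them DESeq2 (adjusted p = 0.0154) and edgeR with library size alone (0.0478). It was not called in the others, among them limma-voom with or without a consensus correlation and edgeR with the suffix covariate (adjusted p = 0.0988). The clamp loader genes Rfc1 to Rfc5, which open and close this ring, had negative log2 fold changes from -0.59 to -0.21. Rfc4 had the lowest, with 5.45, 9.29, 9.87 and 7.88 CPM in WT, 7.58, 7.66, 8.87 and 6.30 in Sp3+/- and 5.74, 5.71 and 4.71 in Sp3-/- libraries. WT 468-4 was below Sp3-/- 685-1 and 697-2.

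Primase and the polymerases had a median log2 fold change of -0.96 over 7 genes, all of them lower in Sp3-/- cells. Prim2, the large subunit of primase that helps to lay down the RNA primer, is on chromosome 1 (33453808 to 33669808) and was the gene called. It was at 14.2, 22.7, 20.5 and 20.2 CPM in WT, 19.7, 18.1, 21.1 and 13.0 in Sp3+/- and 11.01, 10.8 and 8.01 in Sp3-/- libraries. The Sp3-/- libraries were below all others, with WT 468-4 and Sp3+/- 697-4 between them and the rest, and the level was 0.514-fold that of WT (log2 fold change -0.96 ± 0.20, edgeR adjusted p = 0.0214). Pole, the catalytic subunit of the leading-strand polymerase, had the lowest fold change of the group, with 10.0, 38.3, 32.8 and 25.4 CPM in WT, 32.4, 25.6, 27.5 and 12.1 in Sp3+/- and 12.8, 12.1 and 4.61 in Sp3-/- libraries. WT 468-4 was below Sp3-/- 685-1 and 697-2, and the log2 fold change of -1.42 ± 0.51 was not called (adjusted p = 0.0857). Pola2, of the polymerase alpha complex, had the log2 fold change nearest to 0 (-0.28), with 19.0, 31.2, 29.6 and 22.2 CPM in WT, 28.5, 24.8, 26.1 and 19.9 in Sp3+/- and 22.4, 23.7 and 16.9 in Sp3-/- libraries. For 6 of the 7 genes of this group, every library without a suffix was below every library with one, against 9.92% of all genes tested. This order mixes genotype and suffix.

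The 5 genes of nucleotide supply had the lowest median of the 8 role groups, -1.15 on the log2 scale, and 1 of them had the opposite sign. Ribonucleotide reductase makes deoxynucleotides with a large subunit (Rrm1) and a small subunit whose level follows S phase (Rrm2). Rrm2 (chromosome 12, 24708254 to 24714146) was at 22.9, 69.3, 59.3 and 52.9 CPM in WT, 59.8, 46.8, 52.9 and 30.6 in Sp3+/- and 22.6, 22.9 and 11.3 in Sp3-/- libraries. It was called lower at 0.372-fold of WT (log2 fold change -1.43 ± 0.41, edgeR adjusted p = 0.0491), although WT 468-4 was level with the highest Sp3-/- library. The call was kept in 8 of 21 alternatives and was lost with library size alone (edgeR adjusted p = 0.051), with every gene with a count (0.066) and with limma-voom (0.0945). Rrm1 was at 149, 239, 215 and 203 CPM in WT, 215, 261, 223 and 184 in Sp3+/- and 368, 231 and 191 in Sp3-/- libraries. Its highest value was in Sp3-/- 685-1, and its log2 fold change of 0.38 ± 0.24 was not called (adjusted p = 0.296).

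Dut, which removes dUTP so that uracil is not built into DNA, lies on chromosome 2 (125247248 to 125259049). Its levels were 15.2, 38.1, 31.6 and 23.4 CPM in WT, 31.0, 29.1, 28.4 and 16.1 in Sp3+/- and 14.0, 12.7 and 9.91 in Sp3-/- libraries. All Sp3-/- values were below all others, with Sp3-/- 685-1 close to WT 468-4, and Dut was called at 0.451-fold of WT (log2 fold change -1.15 ± 0.31, edgeR adjusted p = 0.0431). Tk1, the thymidine kinase of cycling cells, had the lowest fold change of all 42 genes and was not called. It was at 4.66, 18.0, 16.6 and 11.2 CPM in WT, 11.3, 11.7, 11.4 and 6.15 in Sp3+/- and 5.44, 5.44 and 2.403 in Sp3-/- libraries. WT 468-4 lay inside the Sp3-/- range, and the log2 fold change was -1.49 ± 0.50 (adjusted p = 0.0738). Tyms, which makes dTMP, had a log2 fold change of -0.48.

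Rpa1, the large subunit of the protein that coats single-stranded DNA, was the gene called among those of Okazaki fragment maturation and single-strand binding, whose median log2 fold change was -0.41. It lies on chromosome 11 (75300259 to 75348454). Its levels were 117, 184, 160 and 226 CPM in WT, 206, 169, 183 and 200 in Sp3+/- and 90.4, 93.2 and 83.9 in Sp3-/- libraries. Sp3+/- 697-4, low for most replication genes, was among the higher libraries for Rpa1, and all Sp3-/- libraries were below all others. The level was 0.518-fold that of WT (log2 fold change -0.95 ± 0.21, edgeR adjusted p = 0.0264). Its partner Rpa2 had a log2 fold change of -0.26 and was not called. Fen1, the nuclease that trims Okazaki fragments, was at 21.8, 25.8, 22.5 and 25.1 CPM in WT, 21.3, 20.5, 23.1 and 21.3 in Sp3+/- and 20.1, 29.5 and 19.4 in Sp3-/- libraries, with overlap of all genotypes and a log2 fold change of -0.05 ± 0.17 (adjusted p = 0.857). Lig1, the ligase that joins the fragments, had a log2 fold change of -0.57.

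**Figure D4:**
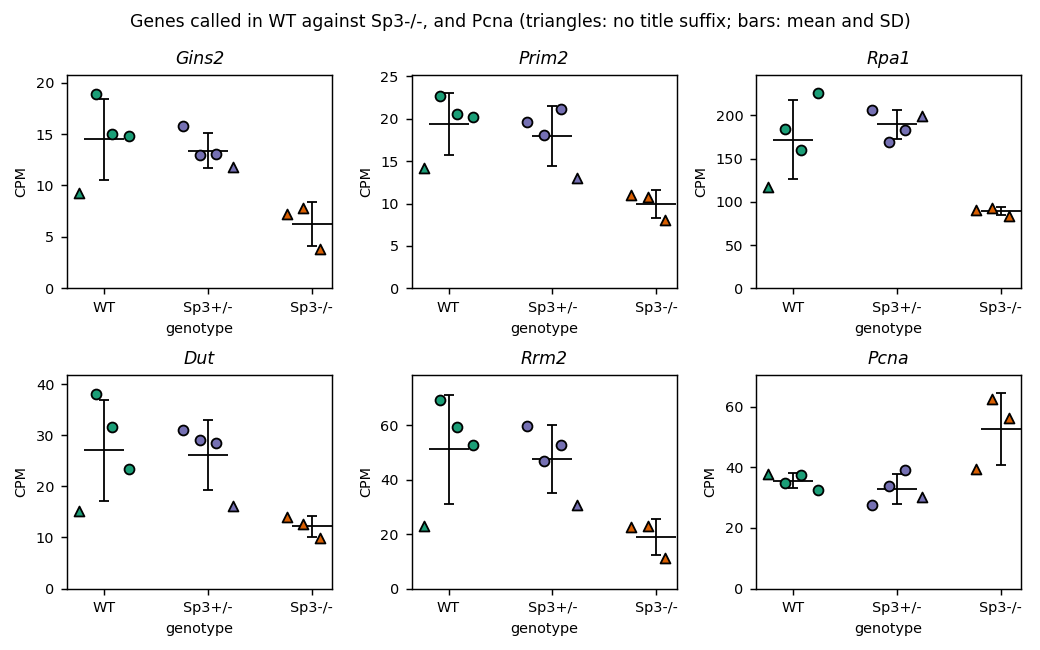
CPM of Gins2, Prim2, Rpa1, Dut, Rrm2 and Pcna in each library, by genotype, on axes that start at 0. Points are libraries, triangles have no title suffix, and horizontal bars with whiskers are the mean and SD (n = 4 WT, 4 Sp3+/- and 3 Sp3-/-). For Dut and Rrm2 the WT and Sp3+/- triangles lie near the Sp3-/- points, and for Rpa1 the Sp3+/- triangle lies with the circles.

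The 4 genes of the fork checkpoint and chromatin assembly had lower fitted levels in Sp3-/- cells, with a median of -0.86 on the log2 scale, and none was called. Uhrf1, which guides maintenance of DNA methylation behind the fork, was at 7.16, 28.1, 24.3 and 17.4 CPM in WT, 21.2, 20.0, 21.0 and 10.6 in Sp3+/- and 9.75, 13.3 and 4.61 in Sp3-/- libraries. WT 468-4 was below Sp3-/- 685-1 and 697-2 (log2 fold change -1.04 ± 0.51, adjusted p = 0.177). Chaf1b, a subunit of the histone chaperone CAF-1, was at 10.5, 17.6, 15.7 and 13.2 CPM in WT, 15.7, 11.3, 12.6 and 8.97 in Sp3+/- and 11.3, 10.3 and 5.51 in Sp3-/- libraries, with overlap. Clspn, the checkpoint mediator claspin, and Chaf1a, the large CAF-1 subunit, had log2 fold changes of -1.01 and -0.71.

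All 3 Sp3-/- libraries were below all 4 WT libraries for 6 of the 42 genes, namely Orc1, Gins2, Gins4, Prim2, Dut and Rpa1, against 16.2% of all genes. They were below all 8 libraries with an intact Sp3 copy for 5 of these genes, without Gins4, against 12.8% of all genes. Both shares were close to those of all genes.

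Sp3+/- cells were compared with WT cells to see whether a single intact copy altered these genes. No replication gene was called, and 0% of the 14130 genes tested were called in either direction by edgeR, with 246 genes and none of the 42 at an unadjusted p below 0.05. Sp3 itself was at 0.712-fold of WT (log2 fold change -0.49 ± 0.16) and was not called either (edgeR adjusted p = 0.9999). The lack of calls therefore does not show that levels were equal. The median log2 fold change of the 42 was -0.12, and 36 were lower, where 56.1% of all genes were lower with a median of -0.016. Each of these genotypes had 1 library without a suffix.

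Sp3-/- cells were also compared with Sp3+/- cells, a comparison that shares the Sp3-/- libraries with the one above and so is not independent of it. Here 38 of the 42 genes had lower fitted levels in Sp3-/- cells and the median was -0.45 on the log2 scale. Called lower were 6 genes, a share again near the 12.5% of all genes called lower. Rpa1 was lowest in its adjusted p (0.0046, edgeR) with a log2 fold change of -1.09 ± 0.19. Gins2 (-1.08), Prim2 (-0.85), Rrm2 (-1.32) and Dut (-1.10) were called in both comparisons, and Chaf1a was called here with a log2 fold change of -0.72 (adjusted p = 0.0495). Pcna was called higher, at 1.61-fold of Sp3+/- (log2 fold change 0.68 ± 0.16, edgeR adjusted p = 0.0129), where 13% of all genes were called higher. With the suffix as a covariate none of these 7 calls was kept.

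Levels can be compared between genes only per length of exon. The length used here joined all annotated exons of a gene, such as 11762 bases for Rrm1 and 2400 for Pcna. The order below therefore also depends on which transcripts are annotated. In WT cells, Rpa1 was highest at 21.7 ± 5.77 CPM per kb (SD, n = 4), followed by Rrm1 at 17.1 ± 3.25, Rrm2 at 15.4 ± 6.02 and Pcna at 14.8 ± 1.03, and each differed from the next by less than 1 SD. In Sp3-/- cells, the order was Rrm1 at 22.4 ± 7.89 CPM per kb (SD, n = 3), Pcna at 21.9 ± 4.99, which did not differ beyond their spread, and Rpa1 at 11.3 ± 0.60, while Rrm2 ranked 12 of the 42 at 5.70 ± 1.99. The lowest levels in WT were those of Mcm10 and Cdc6, at 1.00 and 1.02 CPM per kb. The smallest count of any of these genes in a library was 7, for Pole2 in Sp3-/- 697-5, and the other 41 had at least 10 reads in every library.

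Across the 11 libraries most replication genes followed one another. The correlation of a gene's log2 CPM with the mean of the other 41, which shares libraries, genotype and suffix and is given as a description, was above 0.9 for 30 genes and between 0.5 and 0.9 for 7. Prim1, the catalytic primase subunit, followed the others most closely (r = 0.991). The exceptions were Fen1 (0.42), Gins3 (0.29), Rrm1 (0.26), Cdt1 (-0.07) and Pcna (-0.51). Rpa1 was intermediate at 0.68.

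**Figure D5:**
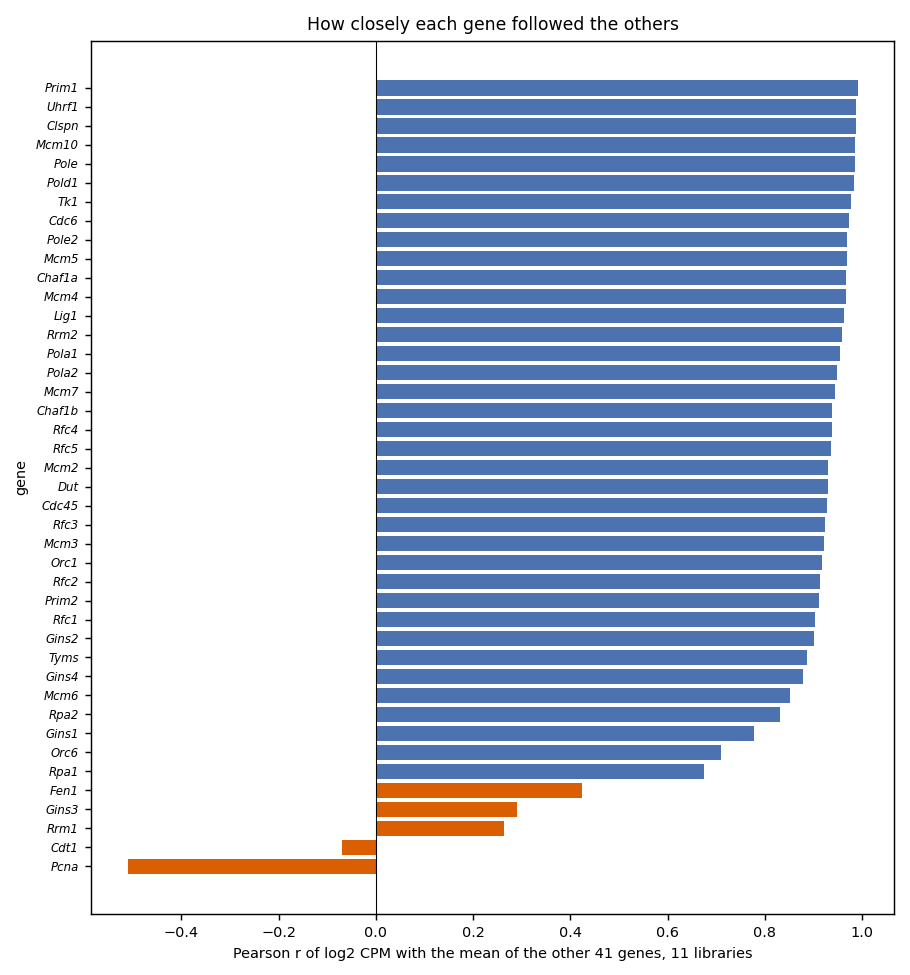
Bars are Pearson correlations, over 11 libraries, of the log2 CPM of each gene with the mean log2 CPM of the other 41 replication genes. Most bars reach beyond 0.9, and the 5 genes in orange are below 0.5, with Pcna at -0.51.

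Outside the list, the genes whose levels were most like the mean of the 42 were Ttk (r = 0.993), Ticrr (0.993), Top2a (0.992), Bub1 (0.990) and Kif14 (0.990), out of 11164 genes compared over 11 libraries. Ttk and Bub1 are kinases of the spindle checkpoint, Kif14 is a motor of cytokinesis, Top2a untangles DNA and Ticrr acts in origin firing. Ttk was at 2.67 CPM in WT 468-4 and at 13.1, 10.7 and 7.68 CPM in the other WT libraries.

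A further 36 replication genes, which were not in the list of 42, had a median log2 fold change of -0.23 from WT to Sp3-/- cells, with 28 lower and 8 higher fitted levels. Pold2, a subunit of polymerase delta, was called lower (log2 fold change -0.68, edgeR adjusted p = 0.0494), and Pold4, another of its subunits, was called higher (0.36, adjusted p = 0.044). These were the only calls among the 36, where 9.77% of all genes were called lower and 8.76% higher. Pold2 was at 13.6, 19.9, 16.3 and 18.6 CPM in WT and 13.3, 10.2 and 8.51 in Sp3-/- libraries.

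Of 12 genes of G1/S cyclins, their kinases and regulators, 4 were called lower and none higher in Sp3-/- against WT cells. Of all genes tested, 9.77% were called lower and 8.76% higher. Ccne1 codes for cyclin E1, which drives entry into S phase. It was at 16.1, 31.7, 30.0 and 29.1 CPM in WT, 28.9, 26.2, 28.5 and 19.2 in Sp3+/- and 11.1, 13.6 and 10.6 in Sp3-/- libraries. All Sp3-/- values were below all others, including both libraries with an Sp3 copy and no suffix (log2 fold change -1.18, edgeR adjusted p = 0.0235). Of all genes tested, 12.8% had all Sp3-/- libraries below all others. For Ccne1 every library without a suffix was also below every library with one, against 9.92% of all genes. This second order mixes genotype and suffix. Ccnd2 (-0.63), Ccnd3 (-0.64), both D-type cyclins, and E2f1 (-0.43), a transcription factor of S-phase genes, were the others called lower. E2f2 had the opposite sign (log2 fold change 0.99, edgeR adjusted p = 0.0602, not called). All its Sp3-/- values were above all others, an order that 11% of all genes showed. Sp3-/- 697-5 was only just above Sp3+/- 697-4, at 5.21 against 5.06 CPM. Against Sp3+/- cells E2f2 was called higher (0.96, edgeR adjusted p = 0.0328). All 25 mitotic genes had lower fitted levels (median -1.25 on the log2 scale). Only Cdc20, an activator of the anaphase-promoting complex, was called (-2.02, edgeR adjusted p = 0.049), where 9.77% of all genes were called lower. Mki67, the gene of the Ki-67 antigen, was at 56.8, 190, 156 and 103 CPM in WT and 59.5, 97.6 and 34.0 in Sp3-/- libraries, and its log2 fold change of -0.995 ± 0.48 was not called (adjusted p = 0.172).

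Several values carry an uncertainty of counting. The counting mode for strand was not given in the sources used here, and exons of 14 of the 42 genes overlap those of another protein-coding gene in GENCODE, among them Gins2 (with Gse1), Rpa1 (with Smyd4), Orc1 (with Prpf38a) and Tk1 (with Afmid and Syngr2), so reads from both strands could not be told apart at those exons. Pcna has the pseudogenes Pcna-ps1 and Pcna-ps2 and Tyms has Tyms-ps, whose near-identical sequence can take up or give reads.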

How the data were processed

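RNA was sequenced as 50 bp single end reads. The authors deposited whole-number counts per gene symbol for 11 libraries. Per the labels, they used FastQC 0.10.1, STAR 2.4.5a, the mm10 build and HTSeq. The 5 HTSeq tallies of reads not assigned to a gene (38.4% to 40.9% of counts) were left out. Genotypes came from the labels. Whether libraries came from separate embryos was not given, so p-values measure the spread between libraries. Genes that exceeded 1 CPM in 1 or more libraries were tested with edgeR 4.0.16 (TMM, robust quasi-likelihood, Benjamini-Hochberg, 0.05) in R 4.3.3, with limma 3.58.1 and DESeq2 1.42.0 as alternatives. The study's own limma-voom method is among these alternatives. WT against Sp3-/- used 7 libraries, and the other comparisons used all 11. CPM used TMM-scaled library sizes, and log2 CPM a prior count of 2. Replicates differed beyond counting noise in all 15 pairs (chi-square per degree of freedom at least 15.9). Scripts were tested on simulated counts. Genes given per library were, in each role group, those with the lowest and highest fold change, those called, and Pcna. From other lists, up to 4 called genes per direction, Ccne1, Mki67 and Sp3 were given. Genes and lists were chosen with earlier results of these data known. Exon lengths and overlaps came from GENCODE on GRCm39, promoters and positions from RefSeq on GRCm38.p6.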

Additional observations from a re-analysis of the deposited data

Results flagged for a closer look

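In the Sp3+/- group, library 697-4 stood apart from the other 3 by Dixon's test for 4 replication genes. It was at 1.98 log2 CPM for Prim1, 2.64 for Tk1, 4.02 for Dut and 3.41 for Uhrf1. In each case it was the lowest library of the group, with a gap of 0.866 to 0.945 of the group's range. A total of 86 groups were tested, of which chance flags about 1 in 20, so 4 flags are about as many as that rate gives. All 4 fell on this library. The 4 genes followed the mean of the other members closely (r from 0.930 to 0.991), so the flags are not independent of one another. Library 697-4 was the Sp3+/- library without a title suffix and had the highest macrophage marker sum of its genotype (3149 CPM). The part of these in the low values was not tested.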

How the results depend on the processing

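The number of replication genes called in WT against Sp3-/- cells depended on the method, while the median of their log2 fold changes was below 0 in all alternatives other than 2 of the 3 that took account of the title suffix. Each count of calls is given with the share of all genes called in that fit. DESeq2 called 11 of the 42 (30.6%), limma-voom 2 (17.8%) and 2 with a consensus correlation (21.6%), a fit of all 11 libraries 10 (28.1%), and the 697 libraries alone 8 (21.1%). In DESeq2, the fit of all 11 and the 697 libraries, 1 of these was Pcna, called higher. In the 697 fit the WT libraries had the suffix and the Sp3-/- libraries lacked it, so genotype and suffix coincided. They also coincided in the fits of WT against Sp3-/- cells without WT 468-4. Limma-voom kept the calls of Prim2 and Rpa1 and lost those of Gins2 (adjusted p = 0.066), Dut (0.0864) and Rrm2 (0.0945). Leaving out 1 library at a time gave 0 to 19 calls (2.01% to 29.9% of all genes). The suffix as a covariate gave 0 calls (9.41%) and a median of -0.0072. The libraries without a suffix alone gave 0 calls (0%) and a median of 0.045, in which WT was a single library, assumed to vary like the others. Chosen after seeing the data were the covariate with the suffix that the file of Sp3+/- 697-4 carries (0 calls, 1.15%, median 0.058) and the removal of WT 468-4 and Sp3+/- 697-4 together (28 calls, 37.4%). For Sp3+/- against Sp3-/- cells, the 7 calls (25.5%) became 3 to 9 without 1 library (10.6% to 26.3%), 0 with the suffix (5.4%, median 0.093), 0 with the file's suffix (0%, median 0.29) and 17 without that pair (32%).

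The sign of log2 fold changes that were not called in the fits reported above turned in the following alternatives, and the cause was not tested. In WT against Sp3-/- cells these were Mcm5 0.24, Mcm2 0.16, Pola2 0.071, Fen1 0.022 and Uhrf1 0.099 with the suffix covariate, Mcm5 0.31, Mcm2 0.31, Pola2 0.14, Fen1 0.065 and Uhrf1 0.36 in libraries without a suffix, and Mcm5 0.32, Mcm2 0.32, Pola2 0.15, Fen1 0.075 and Uhrf1 0.38 with the file's suffix. Fen1 also turned without Sp3-/- 685-1 (0.038) or 697-5 (0.045) and in the 697 libraries (0.055), within -0.26 to 0.045 over all single libraries left out. In Sp3+/- against Sp3-/- cells these were Mcm5 0.40, Mcm2 0.22, Pola2 0.15, Uhrf1 0.085 and Chaf1b 0.088 with the suffix covariate, and Orc1 0.043, Mcm5 0.55, Mcm2 0.51, Rfc4 0.13, Pole 0.30, Pola2 0.29, Tk1 0.38, Uhrf1 0.59, Chaf1b 0.19 and Rrm2 0.039 with the file's suffix, of which Rrm2 had been called. Rrm1 turned without Sp3-/- 685-1 (-0.063, against up to 0.43 without others) and Fen1 without 697-2 (-0.11, against up to 0.19). For WT against Sp3+/- cells no gene of the list was called in any of 19 alternatives, in which the median lay between -0.24 and 0.029, and 43 of 361 small fold changes turned in sign.

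With the first title number as a replicate block, 19 replication genes were called in WT against Sp3-/- cells (28.7% of all genes) and 4 in Sp3+/- against Sp3-/- cells (20.9%). In the fit of WT against Sp3-/- cells, WT 468-4 was the only library with its number, so the block took it up. The other WT libraries had the suffix and the Sp3-/- libraries lacked it, so that fit cannot separate genotype from suffix. The number was not taken to pair the libraries, as its meaning was not given. Deviations from the genotype means were correlated above 0.1 in 7 of 14 pairs of libraries with the same number (median 0.11). With different numbers this held for 10 of 26 pairs (median -0.018). The highest value was that of WT 468-4 with Sp3+/- 697-4 (0.80), both without a suffix. These correlations mix number and suffix and cannot decide whether the number pairs libraries. Depth limits Pole2 most, with 7 reads in the smallest library.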
